A study of Mus musculus with 10 samples.

Results

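Levels of 9 genes of bone morphogenetic protein (BMP) signalling were followed through the cell classes of the embryonic mouse pancreas: the ligands *Bmp2*, *Bmp4*, *Bmp5* and *Bmp7*, the secreted BMP-binding protein *Bmper*, and the 4 inhibitor-of-DNA-binding genes *Id1*, *Id2*, *Id3* and *Id4*. They were taken by symbol from the 27716 genes listed in every count matrix, and all 9 were found.

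BMP ligands are secreted proteins of the TGF-β superfamily. They bind pairs of type I and type II receptor kinases, which phosphorylate Smad1, Smad5 and Smad9, and the activated Smads enter the nucleus with Smad4. The Id genes are among the best known direct targets of these Smads in many tissues. Id proteins have no DNA-binding domain and hold E proteins in inactive dimers, which blocks the basic helix-loop-helix factors that need an E protein as partner. Secreted proteins such as noggin, chordin and Bmper bind the ligands outside the cell and set how much of them reaches a receptor. In the pancreas, mesothelium is the cell sheet that covers the organ, mesenchyme is the tissue around the epithelium, and the epithelium gives rise to acinar, ductal and endocrine cells.

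Single-cell RNA-seq counts of unique molecular identifiers (UMIs) came from 8 independent 10x Genomics libraries of pooled pancreata. Swiss Webster embryos gave 4 libraries of all live cells with v1 chemistry (E12.5, E14.5 replicate 1, E14.5 replicate 2, E17.5) and 3 libraries with v2 chemistry, of the same stages, that were sorted against CD140a (PDGFRA) to enrich epithelium. The eighth library, v2 chemistry, held GFP+ cells with GFP-/tdTomato+ cells of Fev-Cre;ROSA26mTmG embryos at E14.5, in which Cre is driven by Fev. The 2 E17.5 v2 wells were a technical pair and were summed. Among the Swiss Webster libraries chemistry, CD140a sort and sequencer changed together and cannot be told apart, and the Fev-Cre library, v2 without that sort, differed in strain and gate. By the labels v1 E14.5 replicate 1 was batch 1 and the other 3 v1 libraries batch 2, collected on another day. Total UMIs ran from 15671934 to 127151679 per library, and haemoglobin transcripts took 0.0128% (Fev-Cre) to 60.9% (v1 E17.5) of them. Cells were clustered within each library and named X-like by marker genes. The mesenchymal cells of v2 E17.5 were all vascular smooth muscle (VSM)-like.

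Classes were compared on UMI sums per library, given as CPM (the gene's UMIs scaled to the same total of UMIs in every class). Mesenchymal cells (here without mesothelial-like cells, with VSM-like cells) numbered 12973, mesothelial-like 6939, endothelial-like 715 and epithelial 25004, of which 8854 were acinar-like, 7671 ductal-like and 4346 endocrine. Class comparisons were made with the library as a block, and a gene was said to pass, rise or fall where its change was at least 2-fold at an adjusted p below 0.05 over all genes tested (edgeR quasi-likelihood). Libraries were pools of embryos. The p-values of class comparisons measure how the difference within a library varied over libraries of unlike stage, chemistry, sort and strain. Those of stage comparisons measure the spread between libraries that is left after stage and chemistry. It includes any difference in the stage change between the chemistries. A CPM of a gene should be read across classes and not against the CPM of another gene, since the tags come from transcript 3′ ends and depend on the gene.

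In GRCm38, *Bmp2* lies on chr2:133552159-133562885 (+ strand), *Bmp7* on chr2:172868012-172940321 (−) and *Id1* on chr2:152736251-152737410 (+). *Bmp4* lies on chr14:46383520-46390669 (−) and *Id4* on chr13:48261228-48266026 (+). *Bmp5* and *Bmper* share chromosome 9, at chr9:75775364-75900310 (+) and chr9:23223076-23485200 (+). *Id2* is on chr12:25093799-25097140 (−) and *Id3* on chr4:136143497-136145755 (+). The counts are of whole genes, so no exon or isoform was resolved.

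The promoters of a ligand and of an Id gene are shown because *Bmp4* was a ligand whose mesothelial-like and mesenchymal levels did not overlap and *Id4* the Id gene whose levels ran unlike those of the other Id genes. The windows are the 250 bases before the RefSeq start in GRCm38.p6, read 5′ to 3′ on the gene's strand, at chr14:46390670-46390919 for *Bmp4* and chr13:48260866-48261115 for *Id4*. Capitals mark GGCGCC, a GC-rich element that BMP Smads are known to bind and that reads the same on both strands.
Bmp4: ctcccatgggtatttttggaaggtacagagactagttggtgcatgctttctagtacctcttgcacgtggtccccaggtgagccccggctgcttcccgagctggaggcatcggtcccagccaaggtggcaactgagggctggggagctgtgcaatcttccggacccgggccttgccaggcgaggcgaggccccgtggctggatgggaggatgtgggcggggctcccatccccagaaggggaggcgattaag
Id4: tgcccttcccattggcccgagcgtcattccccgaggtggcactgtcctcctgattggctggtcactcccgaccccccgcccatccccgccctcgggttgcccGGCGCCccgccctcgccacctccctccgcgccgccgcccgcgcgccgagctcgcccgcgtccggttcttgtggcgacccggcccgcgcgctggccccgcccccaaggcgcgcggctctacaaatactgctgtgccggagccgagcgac
The *Id4* window holds GGCGCC and the *Bmp4* window does not. Of the other matched members the *Id2* window holds it and those of *Id3*, *Bmp5* and *Bmper* do not, where the *Id2* and *Id3* windows lie within the gene spans given above and not outside the gene. For comparison, 9.59% of 32851 mouse promoter windows of this length hold it. The shorter Smad motif, GTCT or its complement AGAC, is in the *Bmp4* window and not in the *Id4* window, and 82.9% of all windows hold it. These are matches of letters and were not tested against the counts. RefSeq windows were matched for 6 of the 9 genes (*Bmp4*, *Bmp5*, *Bmper*, *Id2*, *Id3*, *Id4*).

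The ligands were highest in different classes. *Bmp4* and *Bmp2* were highest in mesothelial-like cells among the mesenchymal, mesothelial, endothelial and epithelial classes, *Bmp7* in acinar-like and ductal-like cells, and *Bmp5* in mesenchyme, with a median of 7.88 CPM in its VSM-like and 2.41 CPM in its other cells, where its counts were under the filter for a test. *Bmper* was a mesothelial-like transcript at a low level. The Id genes were broad. Among these classes *Id3* led in endothelial-like cells, *Id2* in ductal-like cells, *Id1* was spread over all but the endocrine cells, and *Id4* had its highest mean in mesothelial-like cells.

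**Figure D1:**
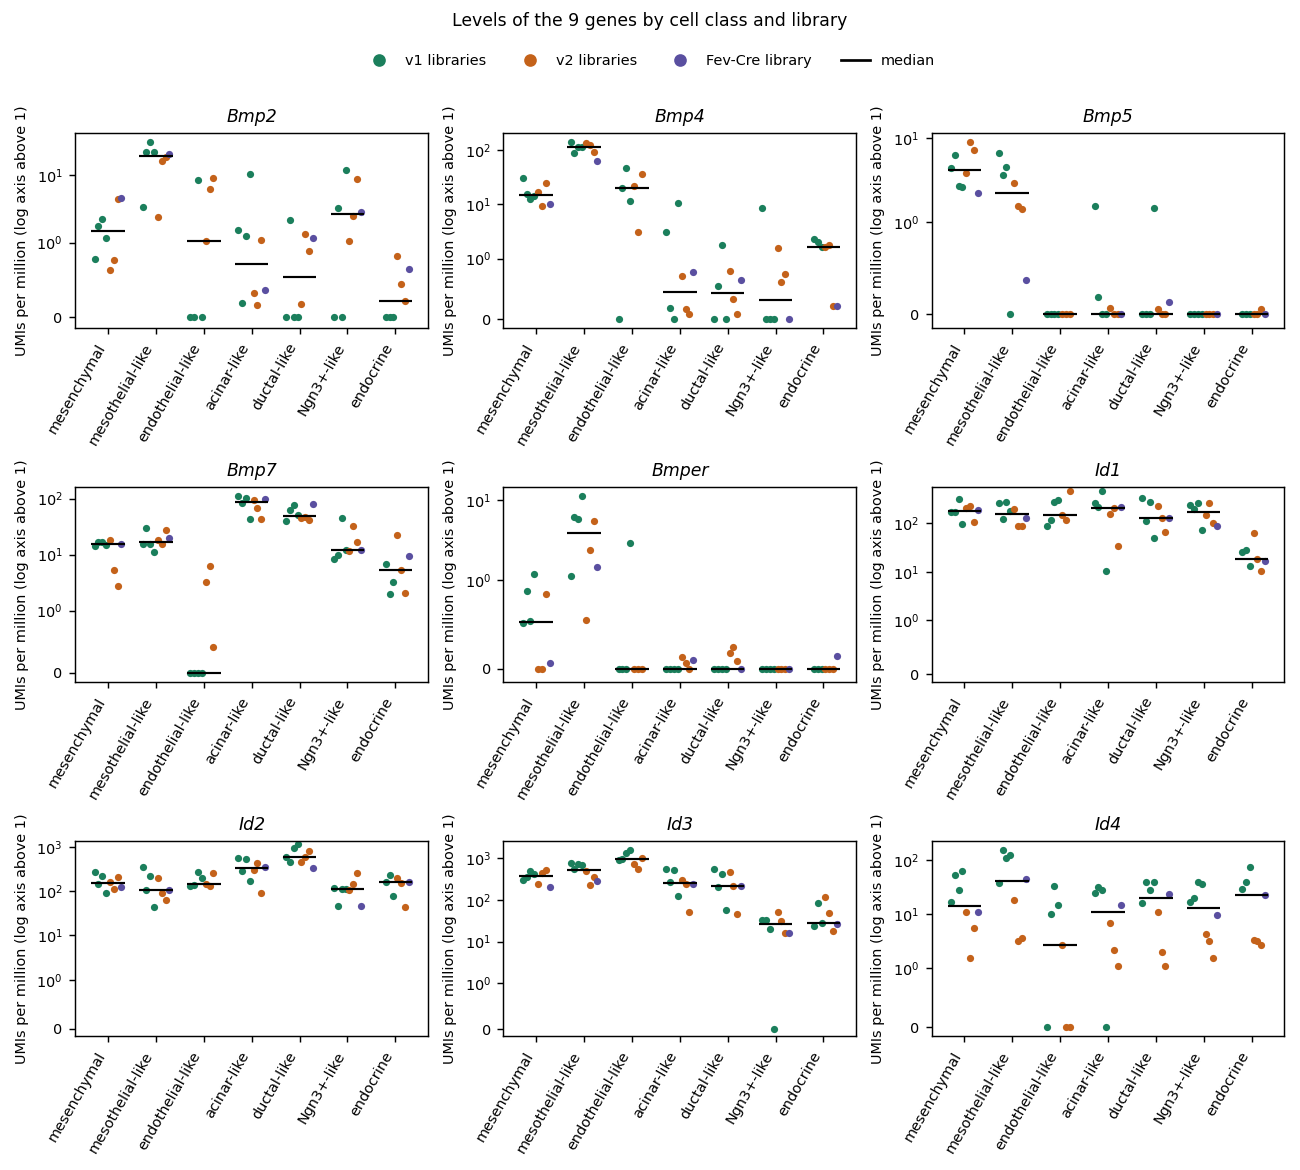
Level of each of the 9 genes (CPM, an axis that is linear near 0 and logarithmic above) by cell class, with a point per library and a bar at the median over libraries. *Bmp4* lies between 62.4 and 139.6 CPM in mesothelial-like cells of all 8 libraries, and *Id3* between 556.9 and 1575 CPM in endothelial-like cells of 7.

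*Bmp4*, a ligand that acts on many mesodermal and gut-derived tissues, was higher in mesothelial-like than in mesenchymal cells of every library. Its level there was 139.6 CPM in v1 E12.5, 85.8 and 111.1 CPM in v1 E14.5 replicates 1 and 2, 112.5 CPM in v1 E17.5, 131.4, 120.8 and 92.0 CPM in the v2 libraries in order of stage, and 62.4 CPM in Fev-Cre E14.5. In mesenchymal cells of the same libraries *Bmp4* ran from 9.16 to 30.1 CPM (median 14.95). The ranges did not overlap, and the lowest mesothelial-like library was above the highest mesenchymal one. *Bmp4* was higher in mesothelial-like cells by 2.67 ± 0.16 on the log2 scale (SE, n = 8 libraries, adjusted p = 2.34e-07).

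The share of cells with a *Bmp4* UMI gave the same order. With each cell thinned to 2000 UMIs, between 11.2% and 23.2% of mesothelial-like cells per library (median 18.05%) held a *Bmp4* UMI, against 1.63% to 5.94% (median 2.44%) of mesenchymal cells. In erythroid-like cells, which should lack *Bmp4* and show what free RNA gives, the thinned share was 0 to 0.546%, and in ductal-like cells it was 0 to 0.154%. Without thinning, the medians were 38.1% and 5.37%, at median depths of 5057.5 UMIs per mesothelial-like and 4534.25 UMIs per mesenchymal cell. Unthinned erythroid-like shares were 0 to 2.32% (median 0.155%), at a median depth of 8742 UMIs, so thinning removes more of their free RNA. The mesothelial-like share was thus above the levels in both classes used as background.

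*Bmp2*, a ligand close in sequence to *Bmp4*, was the other ligand that separated mesothelial-like from mesenchymal cells. Its mesothelial-like level was 3.35 CPM in v1 E12.5, 22.1, 31.8 and 22.5 CPM in the later v1 libraries, 2.44, 16.4 and 18.9 CPM in the v2 libraries in order of stage, and 20.8 CPM in Fev-Cre E14.5. The E12.5 libraries of both chemistries were the low ones. In mesenchymal cells *Bmp2* was 0.63 to 4.63 CPM (median 1.47), and within every library the mesothelial-like value was the higher. The difference was 2.80 ± 0.29 on the log2 scale (adjusted p = 1.57e-05). Immune-like cells also held *Bmp2*, at 0 to 46.5 CPM (median 18.8), above mesenchyme in 7 of 8 libraries. The summed level of the immune marker list in mesothelial-like cells was 0 to 27.7 CPM, against 6.60 to 28.5 CPM in mesenchymal cells.

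Of the 8 members tested between mesothelial-like and mesenchymal cells, 3 passed (*Bmp2*, *Bmp4*, *Id4*), all higher in mesothelial-like cells, where 14.2% of 10900 genes passed in either direction and 8.22% were higher. *Id4* was higher by 1.26 ± 0.24 (adjusted p = 0.00149), with 3.12 to 156.9 CPM in mesothelial-like and 1.53 to 63.4 CPM in mesenchymal cells. Its ranges overlapped across libraries. The call was lost in the v2 libraries taken with Fev-Cre (0.93, adjusted p = 0.178) and with cells named one by one (1.00). Without the library as a block its adjusted p was 0.29. The remaining members did not pass: *Bmp5* (−0.87, adjusted p = 0.124), *Bmp7* (0.60, 0.16), *Id1* (−0.23, 0.379), *Id2* (−0.33, 0.219) and *Id3* (0.41, 0.163). *Bmper* fell under the filter on low counts. It averaged 4.25 CPM in mesothelial-like and 0.50 CPM in mesenchymal cells, and without that filter it was higher by 2.90 (adjusted p = 3.3e-05). The median difference over the 8 tested members was 0.51, beside −0.05 over all genes tested.

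**Figure D2:**
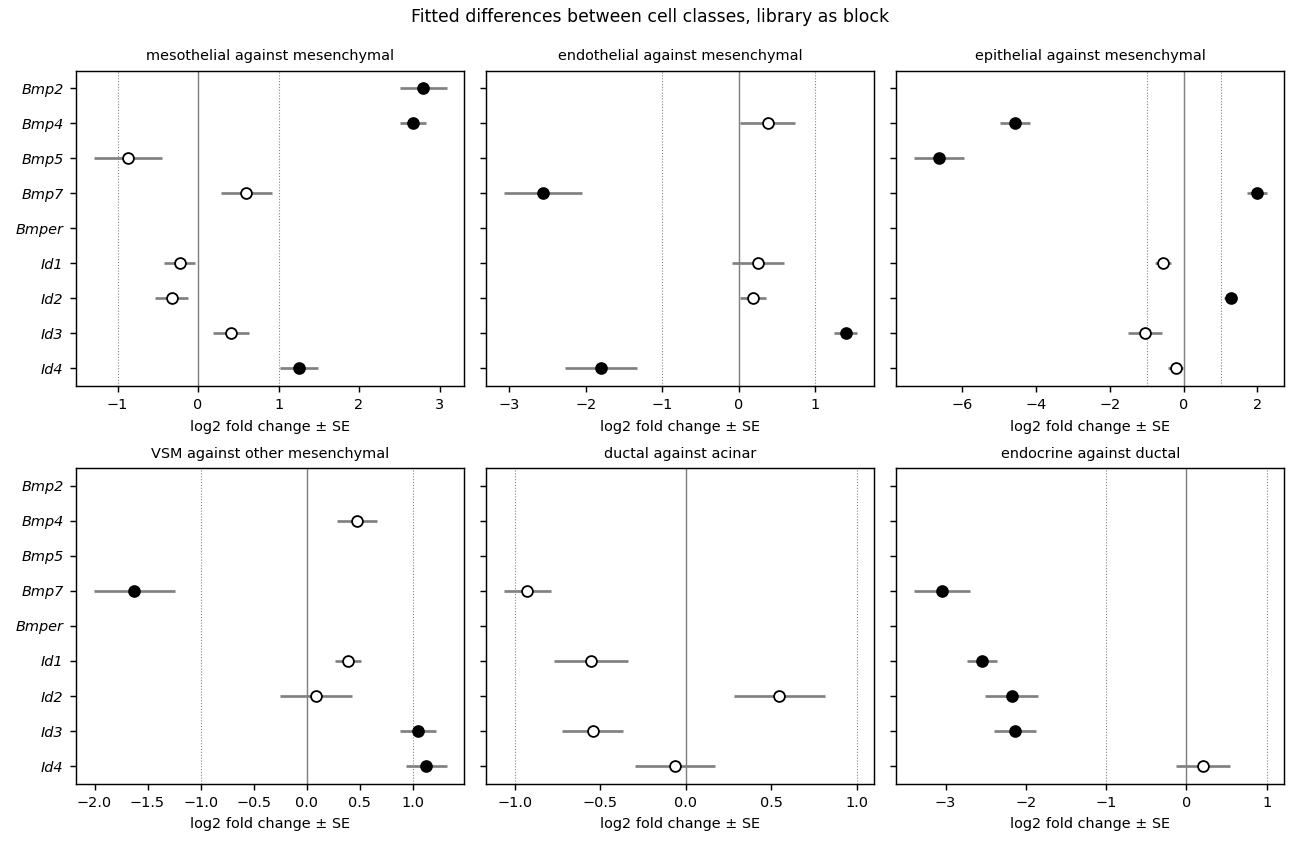
Fitted log2 difference (± SE) of each tested member in 6 class comparisons, where filled points passed both the adjusted p of 0.05 and the 2-fold threshold (dotted lines at −1 and 1). *Bmp4* lies at 2.67 for mesothelial-like and at −4.57 for epithelial against mesenchymal cells, and 4 members lie below −2 for endocrine against ductal-like cells.

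Endothelial-like cells had more *Id3* than mesenchymal cells and almost no *Bmp7*. *Id3*, an Id gene known for its part in vessel growth, was at 930.0, 951.2, 1362 and 1575 CPM in v1 E12.5, E14.5 replicates 1 and 2 and E17.5, and at 741.4, 556.9 and 1030 CPM in the v2 libraries in order of stage. Mesenchymal cells of these libraries held 242.0 to 509.6 CPM. Every endothelial-like value was above every mesenchymal one, and the difference was 1.39 ± 0.15 (n = 7 libraries, adjusted p = 3.29e-06). At 2000 UMIs a cell, 66.7% to 85.4% of endothelial-like cells (median 75.0%) held an *Id3* UMI, against 21.7% to 50.7% (median 32.05%) of mesenchymal and 0 to 3.96% of erythroid-like cells, the latter a measure of free RNA. Without thinning the medians were 89.8%, 45.4% and 5.32%, at median depths of 5409 UMIs per endothelial-like, 4534.25 per mesenchymal and 8742 per erythroid-like cell.

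*Bmp7* was counted at 9 UMIs in all in endothelial-like cells, none of them in the 4 v1 libraries, and averaged 1.41 CPM against 12.7 CPM in mesenchyme (−2.56 ± 0.51, adjusted p = 0.00115). With so few UMIs it met the filter on low counts largely through mesenchymal cells, so its direction was all but set. *Id4* was lower as well, at 8.71 against 25.8 CPM (−1.80 ± 0.47, adjusted p = 0.00782). No *Bmp5* UMI was counted in endothelial-like cells of any of the 7 libraries, which by a floor of 3 counts allows 1.25 CPM in the deepest (v2 E17.5) and 29.7 CPM in the shallowest (v1 E14.5 replicate 1). With 6 members tested, 3 passed (1 higher, 2 lower), beside 19.5% of all genes (9.29% higher, 10.2% lower). *Bmp4* (0.38, adjusted p = 0.471), *Id1* (0.25, 0.632) and *Id2* (0.19, 0.446) did not pass. Within libraries the log2 ratio of *Id1* was 1.68 in v1 E17.5 and 2.09 in v2 E17.5, and −0.91 to −0.24 in the 5 earlier ones, so the fitted value averages over both signs. Endothelial-like cells were few in the v1 libraries, 24 to 100 against 54 to 247 in the v2 libraries. With cells named one by one no member passed. Over the alternatives with a value *Bmp7* passed in 9 of 12, *Id4* in 14 of 16 and *Id3* in 16 of 17.

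*Bmp7* was highest in acinar-like and ductal-like cells, and the epithelium held little of the other ligands. *Bmp7*, known for its role in kidney and eye development, was at 111.7, 82.8, 102.3 and 42.4 CPM in acinar-like cells of v1 E12.5, E14.5 replicates 1 and 2 and E17.5, at 94.1, 68.3 and 42.5 CPM in those of the v2 libraries in order of stage, and at 100 CPM in Fev-Cre E14.5. In ductal-like cells it ran from 39.4 to 81.3 CPM. Mesenchymal levels were 2.80 to 18.5 CPM. Both exocrine classes therefore lay above mesenchyme in every library. Endocrine cells, at a median of 5.39 CPM, were below the mesenchymal median of 15.4 CPM. Over the whole epithelium, *Bmp7* was higher than in mesenchyme by 1.99 ± 0.26 (50.8 against 13.1 CPM, n = 8, adjusted p = 7.04e-05).

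*Bmp4* was almost missing from epithelium, at 0.15 to 1.97 CPM against 9.16 to 30.1 CPM in mesenchyme (−4.57 ± 0.40, adjusted p = 3.48e-06). *Bmp5*, which is known from cartilage development, was counted at 9 epithelial UMIs in all and was lower (−6.64 ± 0.67, adjusted p = 9.94e-06), with a mesenchymal level of 2.21 to 9.16 CPM. *Bmp5* met the filter on low counts through the mesenchymal cells alone, so only a lower value in epithelium could pass. Among the Id genes, *Id2* was higher in epithelium (390.7 against 167.2 CPM, 1.28 ± 0.18, adjusted p = 0.000125). *Id1* was lower by less than 2-fold (−0.56, adjusted p = 0.0389). *Id3* averaged 202.5 against 368.3 CPM and did not pass (−1.04, adjusted p = 0.0727), and *Id4* differed by −0.22 (adjusted p = 0.405). *Id3* did pass with DESeq2 (−1.05), and without v1 E12.5 (−1.27, adjusted p = 0.0432) or v2 E12.5 (−1.26, 0.0417). Its log2 ratio within libraries was 0.28 and 0.43 at E12.5 (v1, v2), −1.13 to −0.48 at E14.5, and −2.98 and −3.77 at E17.5 (v1, v2). Of 7 members tested 4 passed (2 higher, 2 lower), beside 29.6% of all genes (15.9% higher, 13.7% lower). *Bmp2* and *Bmper* were too low in both for a test, with epithelial means of 0.76 and 0.045 CPM.

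Within mesenchyme, VSM-like cells held more *Id3* and *Id4* and less *Bmp7* than the other mesenchymal cells of the same library. *Id3* averaged 619.9 against 288.5 CPM (1.05 ± 0.17, n = 7, adjusted p = 0.00266) and *Id4* 54.6 against 22.1 CPM (1.13 ± 0.19, adjusted p = 0.00449). *Bmp7* averaged 4.29 against 16.3 CPM (−1.62 ± 0.38, adjusted p = 0.0246). These were 3 of 6 members tested (2 higher, 1 lower), beside 3.2% of all genes (2.17% higher, 1.03% lower). All 3 calls were close to a threshold. None was kept with cells named one by one (*Bmp7* at −0.70, *Id3* at 0.61, *Id4* at 0.60) or with UMIs split for naming (−0.94, 1.09 with an adjusted p of 0.07, 0.77). None was kept in the v2 libraries taken with Fev-Cre, where *Id3* was at 0.88 and *Id4* at 0.59 and *Bmp7* was under the filter. Leaving out v1 E14.5 replicate 2, v2 E12.5 or Fev-Cre put *Bmp7* at an adjusted p of 0.0776, 0.0718 or 0.0801, *Id3* was under 2-fold without v1 E12.5, v1 E14.5 replicate 2 or v2 E12.5, and *Id4* was at 0.95 without v1 E17.5. *Bmp4* (0.48, adjusted p = 0.173), *Id1* (0.39, 0.0763) and *Id2* (0.09, 0.943) did not pass. *Bmp5* averaged 7.60 CPM in VSM-like and 2.81 CPM in other mesenchymal cells and was under the filter.

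Between ductal-like and acinar-like cells no member reached a 2-fold change in the fit over all libraries, where 12.8% of all genes passed (7.57% higher, 5.19% lower). In this comparison the scaling moved all genes by 0.41 on the log2 scale, and differences are given relative to that shift. At an unadjusted p below 0.05 and with no fold threshold, 3 of the 5 tested members differed, as did 43.3% of all genes. *Bmp7* was lower in ductal-like cells (−0.93 ± 0.14, adjusted p = 0.000253) and so was *Id3* (−0.54 ± 0.18, adjusted p = 0.032), both under 2-fold. Before that scaling *Bmp7* averaged 55.5 CPM in ductal-like and 80.5 CPM in acinar-like cells, and *Id3* 274.9 and 288.0 CPM, which are nearly equal. *Id1* was at −0.55 (adjusted p = 0.0662), *Id2* at 0.55 (0.134) and *Id4* at −0.06 (0.878). No member passed with DESeq2 either. *Id2* had its highest levels of any epithelial class in ductal-like cells, from 339.6 CPM (Fev-Cre) to 1150 CPM (v1 E17.5), with a median of 583.0 CPM. Within libraries its log2 ratio of ductal-like to acinar-like cells was 2.72 in v1 E17.5 and 3.15 in v2 E17.5, and −0.08 to 0.83 in the other 6, a difference between stages that was not tested here.

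Endocrine cells had less of *Id1*, *Id2*, *Id3* and *Bmp7* than ductal-like cells. *Id1* was at 10.2 to 64.9 CPM in endocrine cells, with its highest value in v2 E12.5, and at 50.7 to 274.5 CPM in ductal-like cells of the same libraries. It was lower within each of the 7 libraries, and at −2.55 ± 0.18 in the fit (adjusted p = 3.93e-07). *Id2*, at 43.3 to 230.9 CPM in endocrine cells, was lower, at −2.18 ± 0.33 (adjusted p = 0.000129). *Id3*, at 18.1 to 114.8 CPM, was lower, at −2.14 ± 0.26 (adjusted p = 2.36e-05). *Bmp7*, at 2.02 to 22.4 CPM, was lower, at −3.05 ± 0.35 (adjusted p = 1.5e-05). *Id4* stood apart from its family, with 25.3 against 20.7 CPM (0.21 ± 0.34, adjusted p = 0.605). The 4 that passed were all lower, of 5 tested, beside 32.1% of all genes in either direction (15.4% higher, 16.8% lower). Their calls were kept under every alternative that was run. The list of 10 proliferation genes fell whole in the same comparison (10 of 10, with *Top2a* at −3.44, *Cdk1* at −3.43 and *Ccnb1* at −3.22), and of 9 tested genes of a list that responds to dissociation 3 were lower (*Atf3* at −2.48, *Jun* at −2.05, *Ier2* at −1.25) and 1 higher (*Hspa1a* at 1.42). The part of either list in the result was not tested. Outside this comparison the proliferation list moved only in acinar-like cells with stage, where 3 of 10 fell, beside 12% of all genes.

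Along the endocrine classes the levels of the Id genes did not share an order. In Ngn3+-like cells, the endocrine progenitors, *Id3* was below ductal-like cells in 8 of 8 libraries (medians 25.9 and 216.4 CPM), *Id2* in 8 of 8 (110.6 and 583.0 CPM) and *Bmp7* in 8 of 8 (12.1 and 49.1 CPM). *Id1* was higher in 4 libraries and lower in 4 (172.6 and 129.9 CPM). In Fev+-like cells, which follow the Ngn3+ stage, *Id1* was lower than in Ngn3+-like cells in 4 of 4 libraries with both classes (32.8 and 117.0 CPM). *Id2* was higher there in 3 of 4 (299.1 and 107.2 CPM) and *Id3* in 4 of 4. In beta-like cells *Id1* was lower than in Ngn3+-like cells in 6 of 6 libraries (9.59 and 150.8 CPM), and in alpha-like cells in 5 of 5. Against Ngn3+-like cells *Id4* was higher in Fev+-like cells in 4 of 4 libraries (44.9 and 23.2 CPM) and in beta-like cells in 5 of 6 (24.8 and 14.7 CPM). In alpha-like cells *Id4* was lower in 5 of 5 (2.81 and 4.18 CPM). There the ranges nearly coincided, at 1.35 to 17.6 and 1.5 to 19.8 CPM. They rest on 49 *Id4* UMIs in alpha-like cells, and Ngn3+-like cells held 51 over all 8 libraries. These small classes are given as levels only and were not tested.

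Stage was compared as E17.5 against E12.5 in the 7 Swiss Webster libraries, with the chemistry as a block and the E14.5 libraries kept in the fit, so E12.5 and E17.5 each had 2 libraries, 1 of each chemistry. Stage went with the pool of embryos and with the dissociation time (10 min at E12.5, 15 min at E14.5, 30 min at E17.5), and in the v2 libraries with the day as well, and these cannot be told apart. A list of immediate-early and heat-shock genes that respond to dissociation moved with stage as well. Its members rose in mesothelial-like (9 of 9 tested), ductal-like (6 of 9), acinar-like (6 of 9), endothelial-like (4 of 9) and mesenchymal cells (4 of 9), with none lower, where 11.5%, 4.29%, 11.5%, 2.89% and 7.95% of all genes rose. In mesothelial-like cells the list summed to 549.9 and 552.0 CPM in the E12.5 libraries and to 7017 and 3861 CPM in the E17.5 ones. Erythroid markers were higher at E17.5 as well in 4 classes. In the E12.5 libraries (v1, v2) their sum was 4338 and 1640 CPM in mesothelial-like, 248.5 and 1107 CPM in ductal-like, 228 and 1261 CPM in acinar-like and 148.8 and 4867 CPM in endothelial-like cells. In the E17.5 libraries it was 47040 and 43790, 63390 and 13830, 65680 and 19490, and 20390 and 77910 CPM. The part of either list in the stage results was not tested. A fit without an E12.5 or E17.5 library has a single library at that stage, which is assumed to vary like the others. The scaling moved all genes by −0.21 in mesenchymal, −0.14 in mesothelial-like and −0.16 in ductal-like cells on the log2 scale, and the stage changes are relative to these shifts.

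In mesothelial-like cells *Bmp2* and *Bmper* rose with stage and *Id2* fell, while *Bmp4* did not pass. *Bmp2* went from 3.35 (v1) and 2.44 CPM (v2) at E12.5 to 22.5 and 18.9 CPM at E17.5, a rise of 3.06 ± 0.42 (adjusted p = 0.000142). The E14.5 libraries, 16.4 to 31.8 CPM, were already at the E17.5 level. *Bmper*, which binds BMPs and can promote or inhibit their action, went from 1.12 and 0.55 CPM to 11.3 and 5.43 CPM, a rise of 3.43 ± 0.62 (adjusted p = 0.00127). The E17.5 v1 value of *Bmper* rests on 2 UMIs in 47 cells, and that of *Bmp2* on 4 UMIs, whereas v2 E17.5 held 100 and 348 UMIs.

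*Id2* fell from 356.8 and 198.7 CPM to 45.0 and 62.5 CPM in these cells, by 1.90 ± 0.38 (adjusted p = 0.00291). Both E17.5 libraries lay below all the others. Mesenchymal markers in mesothelial-like cells summed to 1231 and 890.3 CPM at E12.5 and to 6915 and 5837 CPM at E17.5 (v1, v2). Mesothelial markers went from 1127 and 985.6 to 5463 and 4649 CPM, and ductal markers from 1439 and 975.5 to 4608 and 4063 CPM. *Krt19* is in both the mesothelial and the ductal list, and in v1 E17.5 4 of the 8 ductal markers were at 0. VSM markers went from 300.4 and 164.9 to 602.0 and 625.1 CPM. The part of these lists in the changes of *Bmp2*, *Bmper* and *Id2* was not tested. Of the 9 members tested 3 passed (2 higher, 1 lower), beside 18.2% of all genes (11.5% higher, 6.76% lower). *Bmp4* was at −0.33 (adjusted p = 0.471), *Bmp5* at −1.02 (0.302), *Bmp7* at 0.64 (0.307), *Id1* at −0.79 (0.158), *Id3* at −0.20 (0.713) and *Id4* at −0.78 (0.518). Without v2 E17.5 the rises of *Bmp2* (2.71, adjusted p = 0.168) and *Bmper* (3.28, 0.335) no longer passed, and *Bmper* was at an adjusted p of 0.125 without v2 E12.5. *Id2* was at −1.46 without v1 E17.5 (adjusted p = 0.0511).

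**Figure D3:**
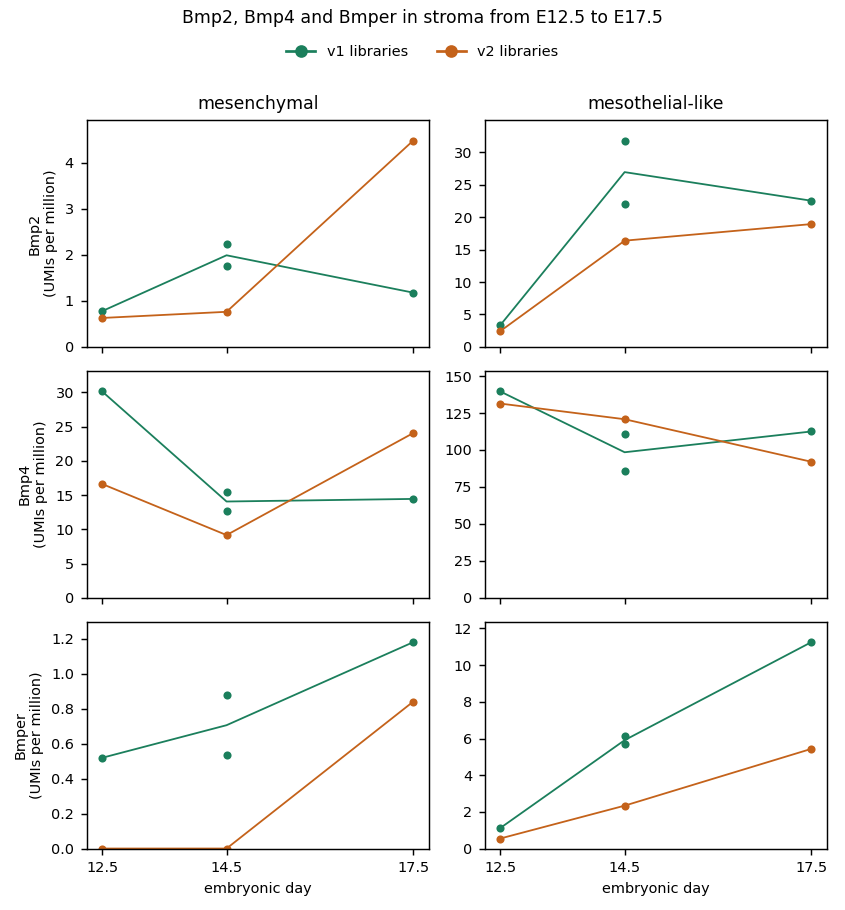
*Bmp2*, *Bmp4* and *Bmper* (CPM) by embryonic day in mesenchymal and mesothelial-like cells, with a point per library and lines through the means of v1 and v2 libraries. In mesothelial-like cells *Bmp2* is below 4 CPM in both E12.5 libraries and above 16 CPM in every later one, while *Bmp4* lies between 85.8 and 139.6 CPM in the Swiss Webster libraries.

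In the exocrine epithelium *Id1* and *Id3* fell with stage. From E12.5 to E17.5 (v1, v2) the ductal markers of ductal-like cells went from 5763 and 2803 to 23420 and 12260 CPM. The mesothelial markers, which share *Krt19* with the ductal list, went from 153.8 and 84.4 to 548.7 and 435.4 CPM. The part of both lists in the ductal results was not tested. Ductal-like *Id3* was at 552.2 (v1) and 476.2 CPM (v2) at E12.5, at 207.2, 426.8 and 218.1 CPM at E14.5, and at 57.9 and 45.8 CPM at E17.5. The 3 stages did not overlap. It fell by 3.17 ± 0.38 (adjusted p = 0.000311), a change that passed under all 15 alternatives. Ductal-like *Id1* went from 327.4 and 224.1 CPM to 50.7 and 67.8 CPM (−1.97 ± 0.41, adjusted p = 0.0119). Its adjusted p was 0.0851 without v2 E12.5. *Id2* was higher in both E17.5 libraries without passing the test. It was at 579.8 and 459.2 CPM at E12.5 and at 1150 and 822.7 CPM at E17.5 (1.08 ± 0.37, adjusted p = 0.133). *Id4* (−1.60, 0.37) and *Bmp7* (0.17, 0.891) did not pass, so 2 of 5 tested members did, both lower, beside 6.09% of all genes (4.29% higher, 1.81% lower). *Id2* passed without v1 E14.5 replicate 1 (1.07, adjusted p = 0.00479), and *Id4* without v1 E12.5 (−2.86, 0.00085) or v1 E17.5 (−2.74, 0.0121).

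In the fit over both chemistries all 4 Id genes were lower at E17.5 than at E12.5 in acinar-like cells, where v1 E17.5 held no *Id4* UMI. *Id1* went from 269.9 and 160.2 CPM to 10.6 and 34.5 CPM, *Id2* from 569.3 and 307.8 to 169.6 and 92.7 CPM, and *Id3* from 561.6 and 294.6 to 127.2 and 52.2 CPM. *Id4* went from 24.8 and 6.96 CPM to 0 and 1.07 CPM. In each case both E17.5 libraries were below both E12.5 libraries. The E14.5 libraries did not all lie between them. There *Id1* reached 457.7 CPM in v1 and 206.8 CPM in v2, *Id2* 437.1 CPM in v2 and *Id4* 31.5 CPM in v1. These were above E12.5 of the same chemistry, whereas *Id3* in both, *Id2* in v1 and *Id4* in v2 were below it. The fitted changes were −1.75 ± 0.39 for *Id1* (adjusted p = 0.000204), −1.10 ± 0.38 for *Id2* (0.0209), −1.66 ± 0.38 for *Id3* (0.000242) and −1.66 ± 0.62 for *Id4* (0.0375). With 6 members tested, 4 passed, all lower, beside 23.5% of all genes (11.5% higher, 12% lower). *Bmp7* (−0.41, adjusted p = 0.482) and *Bmp4* (−1.40, 0.411) did not. Over 15 alternatives *Id1* passed in 13 and *Id3* in 12, but *Id2* and *Id4* in 6 each.

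The acinar fit was scaled by a shift of −0.72 on the log2 scale, so its changes are smaller than the CPM ratios. The summed acinar enzyme markers of these cells rose from 15580 and 11090 CPM at E12.5 to 203900 and 186800 CPM at E17.5, and the part of this share in the Id results was not tested. The v1 E17.5 sum held 28 cells, with 1 UMI of *Id1* and none of *Id4*. In that sum 1 UMI is 10.6 CPM, so its 0 for *Id4* does not show a fall in v1. In v2 *Id4* was also lower at E17.5 in ductal-like (10.8 to 1.08 CPM) and mesothelial-like cells (18.3 to 3.64 CPM). In v1 it was higher there (15.8 to 40.5 and 38.5 to 123.8 CPM). Without v2 E17.5 none of the 4 passed (*Id1* at −4.11, adjusted p = 0.065, *Id2* at −0.94, 0.532, *Id3* at −1.54, 0.251, *Id4* at −11.47, 0.374). There v1 E17.5, with its 1 UMI of *Id1* and none of *Id4*, is the only E17.5 library, so these values for *Id1* and *Id4* are no measure of the size of a fall. Without v1 E17.5 *Id2* (0.0696) and *Id4* (0.108) did not pass. *Id4* was at −0.46 without v2 E12.5 (0.826) and at an adjusted p of 0.0669 without v1 E14.5 replicate 2, and *Id2* at −0.70 without v1 E12.5 (0.301) and −0.98 without v2 E14.5.

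**Figure D4:**
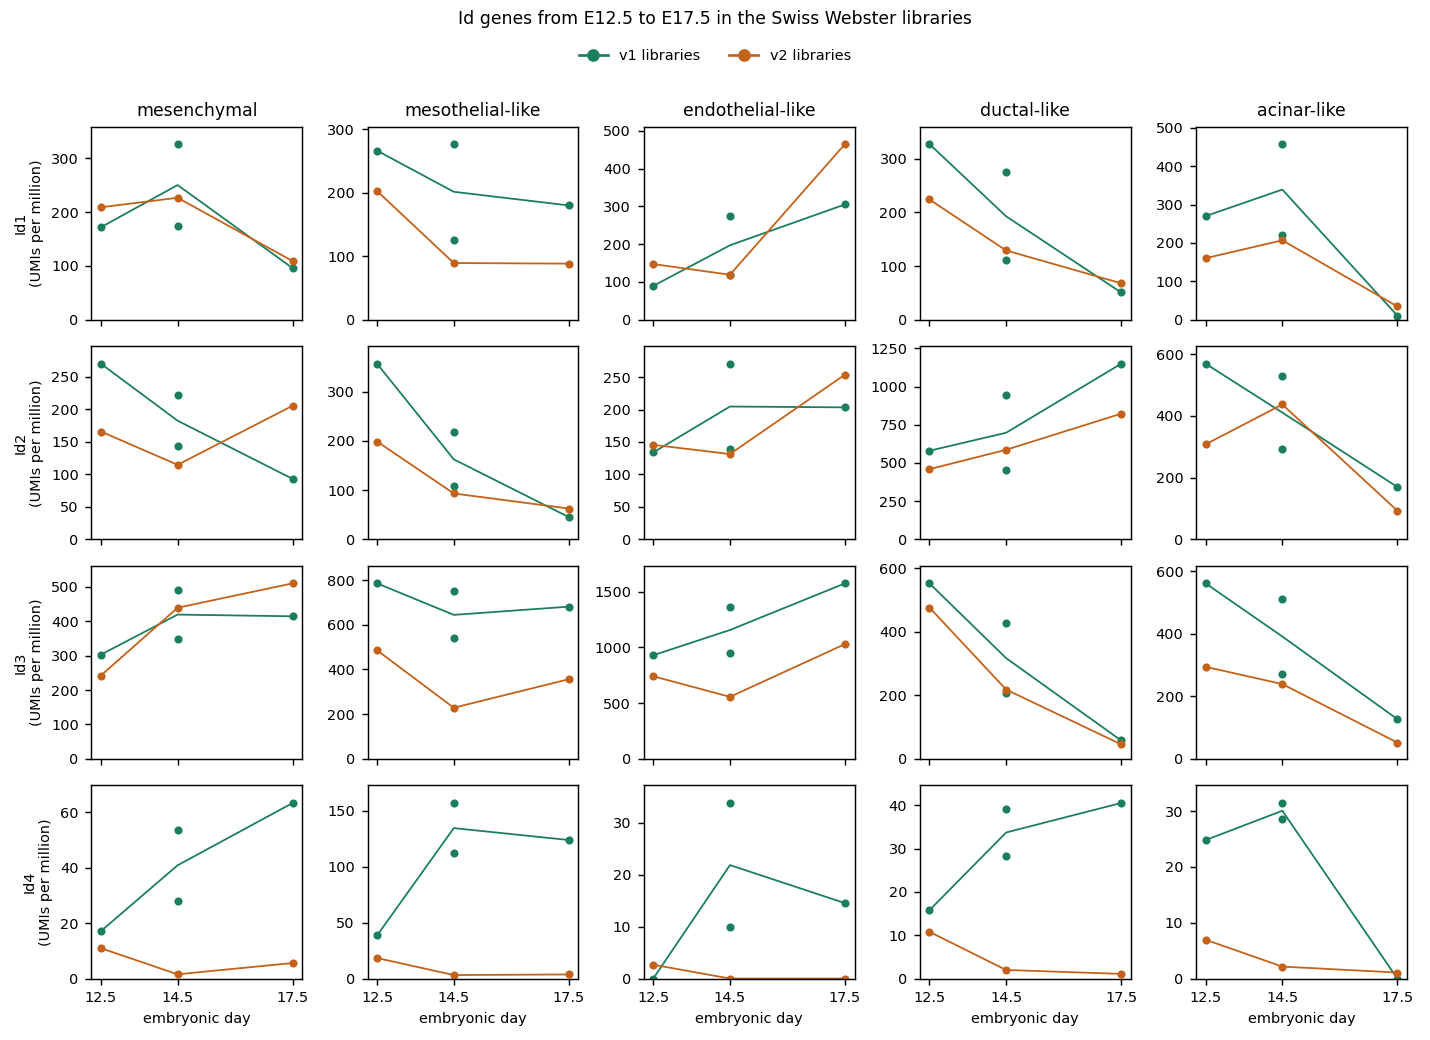
*Id1* to *Id4* (CPM) by embryonic day in 5 cell classes, with a point per library and lines through the means of v1 and v2 libraries. Ductal-like *Id3* falls from 552.2 and 476.2 CPM at E12.5 to 57.9 and 45.8 CPM at E17.5, while endothelial-like *Id1* rises from 89.3 and 147.2 to 305.1 and 464.9 CPM.

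Endothelial-like *Id1* moved the other way. It went from 89.3 (v1) and 147.2 CPM (v2) at E12.5 to 305.1 and 464.9 CPM at E17.5, a rise of 1.71 ± 0.38 (adjusted p = 0.0148). It was the only member to pass of 4 tested, beside 3.95% of all genes (2.89% higher, 1.06% lower). *Id2* (0.80, adjusted p = 0.239), *Id3* (0.70, 0.35) and *Bmp4* (0.76, 0.716) did not pass. The *Id1* rise no longer passed without v1 E12.5 (adjusted p = 0.076), which held 24 such cells, without v2 E12.5 (2.29, 0.0648) or without v2 E17.5 (1.21, 0.483).

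In mesenchymal cells no member passed with stage, beside 10.5% of all genes (7.95% higher, 2.58% lower), and at an unadjusted p below 0.05, which 24.4% of all genes met, *Id3* alone differed of the 7 tested. *Id3* was at 302.7 and 242.0 CPM at E12.5 and at 414.0 and 509.6 CPM at E17.5 (0.96 ± 0.33, adjusted p = 0.106). *Id1* was at −0.69 (0.28), *Id2* at −0.33 (0.717), *Id4* at 0.70 (0.611), *Bmp7* at −0.95 (0.379), *Bmp4* at −0.03 (0.971) and *Bmp5* at 0.27 (0.834). DESeq2 also called none. The v2 E17.5 cells in this comparison were all VSM-like. With VSM-like cells left out, an alternative chosen after seeing the data in which v1 E17.5 is the single E17.5 library and is assumed to vary like the others, *Id2* was at −1.54 (adjusted p = 0.0289). Single libraries decided others, with *Bmp7* at −2.25 without v1 E12.5 (0.0382) and *Id4* at 2.23 without v2 E12.5 (0.0262).

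*Id4* differed between the v1 libraries and the CD140a-sorted v2 libraries at E14.5 and E17.5. At E14.5 and E17.5, mesothelial-like *Id4* was at 156.9, 112.0 and 123.8 CPM in the 3 v1 libraries and at 3.12 and 3.64 CPM in the 2 v2 libraries of Swiss Webster embryos. The v1 values were above the v2 values in mesenchymal, mesothelial-like, endothelial-like, ductal-like, Ngn3+-like and endocrine cells. In acinar-like cells v1 ran from 0 to 31.5 CPM, where the 0 is the v1 E17.5 sum of 28 cells, and v2 from 1.07 to 2.14 CPM. Other members had all v1 above all v2 values in fewer classes. These were *Bmp2*, *Bmper*, *Id1* and *Id3* in mesothelial-like cells and *Bmp7* in mesenchymal and ductal-like cells. VSM-like cells were 149 of 234 mesenchymal cells in v2 E14.5 and all 337 in v2 E17.5. In v1 E14.5 replicates 1 and 2 and v1 E17.5 they were 95 of 1292, 363 of 2778 and 149 of 1164. The part of this make-up in the mesenchymal *Bmp7* gap was not tested. At E12.5 the *Id4* gap was smaller in mesothelial-like (v1 38.52, v2 18.34 CPM), mesenchymal (17.11, 10.95) and ductal-like cells (15.78, 10.79). Acinar-like cells held 24.82 and 6.955 CPM and endothelial-like cells 0 and 2.667 CPM. The v2 E12.5 library had the same chemistry and sort as the later v2 libraries, and why its gap was smaller was not tested. Fev-Cre E14.5, v2 without the CD140a sort, held 44.4 CPM in mesothelial-like cells, between the v1 and v2 values of that stage. With the v1 libraries alone the stage change of *Id4* was 1.85 in mesothelial-like (adjusted p = 0.00643) and 2.15 in mesenchymal cells (adjusted p = 0.0148), against −0.78 and 0.70 over both chemistries. That fit has 1 library at E12.5 and 1 at E17.5, assumed to vary like the 2 at E14.5. Without v1 E12.5 mesothelial-like *Id4* was at −2.25 (adjusted p = 0.000288). The gene lists of the matrices differ too, with 27775 genes in v1, 27998 in v2 and 28694 in Fev-Cre, and so does the Cell Ranger version. Chemistry, CD140a sort, sequencer and these differences in counting cannot be told apart within the Swiss Webster libraries, and Fev-Cre differs from them in strain and gate as well.

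Other genes of the pathway were counted from lists by role. Of 16 further extracellular antagonists and binders, 11 were tested in mesothelial-like against mesenchymal cells, and 4 were higher and 2 lower, beside 8.22% and 5.94% of all genes. *Fst*, the activin and BMP binder follistatin, was higher by 3.97 ± 0.58 and *Sostdc1* by 2.69 ± 0.39, while *Kcp* was lower (−1.79 ± 0.25). In epithelium against mesenchyme 2 of 12 were higher and 7 lower (all genes 15.9% and 13.7%), with *Htra1* at −6.07, *Fstl1* at −4.33 and *Nbl1* at −3.91. In endothelial-like cells, where 9.29% of all genes were higher and 10.2% lower, it was 1 of 7 and 3 of 7 (*Nbl1* at −5.62, *Htra1* at −2.66, *Fstl3* at −2.13). In endocrine against ductal-like cells 1 of 6 was higher and 3 lower (all genes 15.4% and 16.8%), with *Chrdl1* at −5.24.

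Of 9 receptors and co-receptors tested in endothelial-like cells, 3 were higher than in mesenchyme and 2 lower, beside 9.29% and 10.2% of all genes. *Eng*, the co-receptor endoglin, was at 440.2 against 45.4 CPM (3.23 ± 0.14). *Bmpr1a*, the type I receptor for *Bmp2* and *Bmp4*, was lower (−3.74 ± 0.41), as was the co-receptor *Rgma* (−4.34 ± 0.65). In mesothelial-like cells *Eng* (−4.03) and *Acvrl1*, the type I receptor ALK1 (−2.79), were lower, and *Acvr2b*, a type II receptor, was higher by 1.60. Of 6 Smads tested in endothelial-like cells, *Smad1* alone passed (1.36 ± 0.15). Of 11 further BMP and GDF ligands, at most 3 were high enough for a test in any comparison. In mesothelial-like against mesenchymal cells *Gdf6* was higher by 1.68 and *Gdf11* lower (−1.11), of 2 tested, beside 8.22% and 5.94% of all genes.

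Targets outside the Id family, a list that shares *Smad6* and *Smad7* with the Smads, moved both ways in mesothelial-like cells. There 3 of 9 were higher (*Gata4* by 4.25 and *Gata6* by 2.39 among them) and 3 lower, with *Msx1* at −2.65, beside 8.22% and 5.94% of all genes. In endothelial-like cells *Hhex* and *Hey1* were higher (4.80 and 2.57) of 7 tested, none lower, beside 9.29% and 10.2%. In epithelium 4 of 9 were higher (*Hhex* by 4.56, *Gata4* by 4.28) and 1 lower (*Msx1*, −3.02), beside 15.9% and 13.7%. In endocrine cells 6 of 8 were lower than in ductal-like cells and none higher, beside 16.8% and 15.4%, with *Hey1* at −2.96, *Smad6* at −2.91 and *Atoh8* at −2.73. Of the 3 E proteins that Id proteins bind, *Tcf4* was higher in endothelial-like cells (1.44 ± 0.11) and lower in mesothelial-like cells and epithelium, and *Tcf3* was lower in endocrine cells (−1.51 ± 0.10).

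With stage, 6 of 12 antagonists rose in mesothelial-like cells and 1 fell, where 11.5% of all genes rose and 6.76% fell. *Htra1* rose by 4.08 ± 0.30 and *Chrd*, the ligand trap chordin, by 3.77 ± 0.51. Mesenchymal *Grem1* rose by 3.16 ± 0.66 and *Gdf10* by 4.02 ± 0.39, while *Gdf6* fell by 2.07 there and by 2.61 in mesothelial-like cells. In mesenchymal cells 3 of 11 antagonists rose, and of 3 ligands 1 rose and 1 fell. There 7.95% of all genes rose and 2.58% fell. VSM-like cells were 173 of 1340 mesenchymal cells in v2 E12.5 and all 337 in v2 E17.5. The part of this make-up in the mesenchymal changes was not tested. *Gdf11* fell by 2.98 in ductal-like and by 3.92 in acinar-like cells. In acinar-like cells *Sostdc1* rose by 4.77, and of 7 targets 1 was higher and 4 lower (*Hhex* at −4.18, *Bambi* at −2.92 and *Smad7* at −1.73 among them), beside 11.5% and 12% of all genes. In ductal-like cells no target outside the Id family passed of 8 tested, beside 6.09% of all genes, whereas *Acvr2b* was lower (−3.55) and *Nbl1* rose by 2.57. In endothelial-like cells *Eng* (1.58), *Acvrl1* (1.56) and *Smad7* (1.66) rose, where 2.89% of all genes did.

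The genes whose levels followed each member most closely were found over 46 sums per library and class, among genes with a mean of at least 20 CPM, as Pearson's r of log2(CPM + 1). Sums of a library share its depth, and these values are a description. *Bmp2* was followed by *Aldh1a2* (r = 0.78), *Rarres1* and *Upk3b*, of which *Upk3b* is in the mesothelial marker list. *Bmp4* was followed by *Hoxb7* (0.86), *Emp3* and *Wisp1*, *Bmp5* by *Slit2* (0.87), *Hand2* and *Gucy1a3*, and *Bmp7* by *Phgdh* (0.91), *Mapk13* and *Aldh7a1*. *Bmper* was followed by *Lgals7* (0.85), *Igfbp6* and *Gpm6a*. Among the Id genes, *Id1* was followed by *Impdh2* (0.88), *Impa2* and *Tk1*, *Id2* by *Bag2* (0.80), *Nit2* and *Vps36*, *Id3* by *Ppt2* (0.88), *Tspan4* and *Tspan6*, and *Id4* by *Cebpb* (0.84), *H1fx* and *Dgcr2*.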

How the data were processed

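The deposited files hold UMI counts per gene and cell, which the authors made with Cell Ranger 1.1 (v1) or 2.1 (v2) on mm10, with eGFP and tdTomato sequences added for Fev-Cre, whose reporter alignment was used and the alignment without reporters was not. Barcodes with at least 200 genes were kept. Each library was clustered alone (2000 variable genes, 20 principal components, 20 neighbours, Leiden resolution 1, seed 1, leidenalg 0.10.2, Python 3.11.15). Clusters were named X-like by their leading marker list (score of at least 0.5, other scores at most 85% of it, at least 3 markers), with thresholds set after the clusters had been seen, so differences from other annotations may come from rebuilt names. A cell with markers of 2 compartments, each at 30% or more of its usual level there and at least 3 UMIs, was removed as a doublet (0.433% to 6.84% of cells per library). Libraries shared 0.49% to 1.79% of the smaller library's barcodes.

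Counts were summed per library and class with at least 20 cells and tested with edgeR 4.0.16 in R 4.3.3 (quasi-likelihood test, TMM scaling, filterByExpr, Benjamini-Hochberg over all genes tested). For stage the chemistry was the block. For classes the library was the block, because both sums came from the same animals. Deviations of same-library sums from their class means correlated at 0.438 to 0.929. The highest value between different libraries was 0.611 to 0.711 by comparison. It was above the lowest same-library value for ductal-like against acinar-like (0.62 and 0.438), endothelial-like (0.611 and 0.587) and VSM-like cells (0.711 and 0.703). Endocrine cells were the Fev+-like, alpha-like, beta-like and epsilon-like cells together, and their make-up differed between libraries. No beta-like cells were named in v2 E12.5 and no alpha-like cells in v1 E14.5 replicate 2 and v1 E17.5. No Fev+-like cells were named in v1 E14.5 replicate 1, v2 E14.5 and v2 E17.5. On simulated counts recovery was counted at an adjusted p below 0.05 with no fold threshold. It was 87% of 2-fold and 99% of 4-fold changes in mesothelial-like against mesenchymal cells (10900 genes). For stage it was 10% and 70% in mesenchymal and 4% and 60% in acinar-like cells. The median estimate of a 2-fold change was 0.991 on the log2 scale in the class comparison, so part of the simulated 2-fold changes lay under the 2-fold threshold used for a call. All members were named in each comparison. A pathway gene was named where it passed and was among the 3 largest changes of its list, or was the list's highest gene in a class, and 1 such gene is not reported here. Members and lists were chosen with earlier results of these data known. Promoter sequences are from RefSeq. DESeq2 1.42.0, other filters, left-out libraries and single chemistries were run as alternatives. Intervals and floors cover counting error only.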

Additional observations from a re-analysis of the deposited data

Results flagged for a closer look

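Of 37 groups of within-library ratios, 4 held a library that stood apart from the others, where chance alone would give about 5% of groups. Among members that could be tested, in 4 further cases the change with stage either differed between the chemistries past the test or ran in opposite directions by at least 1.5-fold each way (on CPM + 1). Smaller opposite changes, such as those of mesenchymal *Id2*, *Bmp4* and *Bmp7*, are not among them, nor is endothelial-like *Id4*, which was under the filter for a test (0 to 14.53 CPM in v1, 2.67 to 0 CPM in v2).

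In mesothelial-like against mesenchymal cells, the log2 ratio of *Bmp7* was 3.23 in v2 E17.5, where the others ran from −0.11 to 1.43. It rests on 506 mesothelial-like and 10 mesenchymal UMIs, and those mesenchymal cells were all VSM-like. In endothelial-like against mesenchymal cells, *Bmp7* was at 0.45 in v2 E14.5, from 2 and 7 UMIs, and at −3.39 to −1.76 in the other libraries. In epithelium against mesenchyme, *Bmp4* was at −7.30 in v2 E17.5, from 12 and 86 UMIs, and at −4.72 to −2.76 elsewhere. In ductal-like against acinar-like cells, *Id4* was at 2.96 in v1 E17.5, from 28 and 0 UMIs, and at −0.53 to 0.68 elsewhere. The acinar-like sum of that library held 28 cells.

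The change of *Id4* from E12.5 to E17.5 was compared between the chemistries with 1 library per stage and chemistry. The spread came from the 2 v1 E14.5 libraries and was moderated over genes, so the single libraries are assumed to vary like those, and the p-values rest on that. In mesothelial-like cells the change was lower in v2 than in v1 by a log2 difference of −4.00 (interaction in edgeR, adjusted p = 0.000273). In mesenchymal cells the difference was −2.99 (adjusted p = 0.233) and in ductal-like cells −4.82 (adjusted p = 0.0701) and the test did not pass. For *Bmp4* in acinar-like cells the difference was −4.43 (adjusted p = 0.918). There the levels were near the floor, at 3.10 to 10.6 CPM in v1, where 10.6 CPM is 1 UMI, and 0.72 to 0.09 CPM in v2.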

How the results depend on the processing

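The 27 calls of a member kept their direction in all 435 alternative fits with a value and passed in 369, and 11 of them passed in every alternative that gave a value. Calls of *Bmp4* and *Bmp2* in mesothelial-like cells, of *Bmp4*, *Bmp7* and *Id2* in epithelium and of all 4 members in endocrine cells were among those. In this section the v2 libraries of a class comparison include Fev-Cre where it held at least 20 cells of both classes. The number of members that passed moved by over 1.5 times as follows. In endothelial-like against mesenchymal cells it was 0 with cells named one by one and 1 in v2 libraries. For VSM-like cells it was 0 with cells named one by one, in v2 libraries and with UMIs split for naming, and 1 to 3 with a library left out. For stage it was 1 in mesenchymal cells with v1 libraries alone or without VSM-like cells (0 to 1 with a library left out), 0 in endothelial-like cells named one by one (0 to 1), and 4 in ductal-like cells without the low-count filter (1 to 3). In mesothelial-like cells it ran from 1 to 4 with a library left out. In acinar-like cells it was 2 with DESeq2, 2 with at least 50 cells and 0 in v1 libraries (0 to 5).

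Without the library as a block the counts of members that passed were 2 in mesothelial-like and 1 in VSM-like cells. For stage, without the chemistry as a block, they were 0 in endothelial-like, 1 in ductal-like and 1 in acinar-like cells. The class sums of a library came from the same animals and also shared its chemistry, sort and stage, and the part of each in the pairing was not tested. Stage fits in v1 libraries alone, or without an E12.5 or E17.5 library, hold a stage with a lone library that is assumed to vary like the rest.

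Changes of sign occurred only among members that had not passed. In v1 libraries these were mesothelial-like *Bmp5* (0.33) and *Id1* (0.14), and with stage mesenchymal *Bmp5* (−0.47) and *Bmp7* (0.36), mesothelial-like *Bmp7* (−0.30) and *Id4* (1.85), and ductal-like *Id4* (1.57). VSM-like *Id2* was at −0.046 with DESeq2, −0.011 without the low-count filter and −0.64 in v2 libraries, where *Bmp4* was at −0.046. *Id4* in ductal-like against acinar-like cells was at 0.025 with DESeq2 and 0.16 without the library as a block. Without the chemistry as a block stage gave *Id4* at 0.56 in mesothelial-like and 0.38 in ductal-like cells. With VSM-like cells alone, stage gave *Bmp4* at 0.041 and *Bmp5* at −0.46, and without them *Bmp5* at −0.56 and *Bmp7* at 0.33. Ductal-like *Bmp7* was at −0.21 with cells named one by one. With a library left out, endothelial-like *Id1* ran from −0.125 to 0.42 (−0.048 without v1 E17.5) and *Id2* from −0.002 to 0.27, VSM-like *Id2* from −0.21 to 0.30, ductal-like against acinar-like *Id4* from −0.17 to 0.13 (0.007 without v2 E14.5) and endocrine *Id4* from −0.06 to 0.52. For stage the mesenchymal ranges were −0.72 to 0.52 (*Bmp4*, −0.54 without v2 E12.5), −0.46 to 1.01 (*Bmp5*, −0.16 without v2 E17.5), −2.30 to 0.17 (*Bmp7*), −1.24 to 0.34 (*Id2*, −0.80 without v2 E12.5) and −0.98 to 2.23 (*Id4*). The mesothelial-like ranges were −0.58 to 0.92 (*Bmp7*), −0.46 to 0.052 (*Id3*) and −2.25 to 1.85 (*Id4*, 0.63 without v2 E17.5). Endothelial-like *Bmp4* ran from −0.97 to 6.99, ductal-like *Bmp7* from −0.051 to 0.60 and *Id4* from −2.86 to 1.23, and acinar-like *Bmp4* from −2.21 to 3.05. The cause of these changes was not tested.

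Counts over all genes moved as well. Without the low-count filter, which tests more genes, they were 2974 (mesothelial-like, 1543 with it), 3305 (endothelial-like, 1870), 5961 (epithelium, 3692), 542 (VSM-like, 297), 2315 (ductal-like against acinar-like, 1438) and 5798 (endocrine, 3575), and for stage 1999 (mesenchymal, 1222), 328 (endothelial-like, 202) and 1103 (ductal-like, 628). With cells named one by one they were 1180 (endothelial-like), 111 (VSM-like) and 23 (endothelial-like stage), and with UMIs split for naming 119 (VSM-like) and 2121 (endocrine). Without the library as a block the count was 122 (VSM-like). For stage without the chemistry as a block the counts were 413 (mesenchymal), 1354 (mesothelial-like, 2072 with it), 23 (endothelial-like), 325 (ductal-like) and 1342 (acinar-like, 2689 with it). In v1 libraries they were 773 (ductal-like against acinar-like), 2026 (endocrine), 690, 77, 263 and 327 (mesothelial-like, endothelial-like, ductal-like and acinar-like stage), and in v2 libraries 526 (VSM-like) and 724 (ductal-like against acinar-like). DESeq2 gave 107 for endothelial-like stage, and VSM-like cells alone gave 396 for stage. With a library left out, the stage counts ran from 619 to 1349 (mesenchymal), 347 to 2478 (mesothelial-like), 43 to 268 (endothelial-like), 119 to 1286 (ductal-like) and 222 to 3488 (acinar-like). A test of 2 libraries against 2 recovered few small changes, so a member that did not pass with stage is not shown to be unchanged.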

Other observations

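Classes outside the comparisons carried Id genes and *Bmp2* as well. In neural-like cells, named by markers of Schwann cell precursors, neural crest and neurons, *Id3* was at 173.1 to 2053 CPM (median 1364) and above the mesenchymal level in 7 of 8 libraries. *Id2* was above it in 7 of 8 libraries and *Id4* in 6 of 8, with a neural-like *Id4* of 0 to 225.1 CPM. In immune-like cells *Id2*, which lymphoid and dendritic lineages need, was at 131.4 to 714.6 CPM (median 417.2) and above mesenchyme in 7 of 8 libraries, while *Id4* was at 0 to 6.07 CPM. Immune-like *Bmp2* had a median of 18.8 CPM, beside 19.8 CPM in mesothelial-like cells. In erythroid-like cells *Id2* was at 5.04 to 43.1 CPM and *Id3* at 2.05 to 50.9 CPM. These classes were small in some libraries and no difference between them was tested.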
